A study of Mus musculus with 12 samples.

Results

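The 8 selenoprotein genes of mouse liver described here are Selenop, Selenof, Selenow, Selenok, Selenos, Dio1, Sephs2 and Msrb1. They were chosen by name, with earlier results of these data known, from the 56748 genes of the count table, and all 8 were among the 14003 genes with enough counts to be tested. Their levels and differences are therefore a description with no p-value, and where members called by the fit to all genes are counted, the share of all genes stands beside the count and no support is drawn from it. The libraries are poly(A)-selected RNA of whole liver from 16-week-old mice, which lived in shared cages and ate normal chow. The 4 groups were female and male 129S1/SvImJ mice, called wild type (WT), and female and male 129/Sv-Cyp2e1tm1Gonz/J mice, called Cyp2e1 knockout (KO), with 3 biological replicates in each. The KO line carries a targeted allele of Cyp2e1, a cytochrome P450 that oxidises ethanol and other small molecules, in every cell. WT and KO are separate 129 lines, so the effect of the allele and other differences between the lines cannot be told apart. The samples are bulk tissue, in which fewer cells of a type and less RNA per cell cannot be told apart.

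Selenoproteins contain selenocysteine, an amino acid that is read from a UGA codon (TGA in DNA), the codon that ends translation in most messages. A stem-loop in the 3′ untranslated region, the SECIS element, recruits the factors that let the ribosome insert selenocysteine there. Liver takes up dietary selenium, makes most of the body's plasma selenoprotein P and exports it to other tissues. When selenium is short, cells lower some selenoprotein messages more than others, in part through decay of messages whose UGA is read as a premature stop.

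The codon that defines the family is shown here for each of the 8 genes, since it is what they share. The sequences are from GENCODE M21 transcripts (GRCm38, the C57BL/6J reference, so not the genome of these mice), on the coding strand from 5′ to 3′, with the in-frame TGA in capitals and up to 30 bases on each side.
Selenop, first of 10: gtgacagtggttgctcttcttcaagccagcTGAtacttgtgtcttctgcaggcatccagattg
Selenof: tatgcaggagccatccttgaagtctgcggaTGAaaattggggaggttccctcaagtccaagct
Selenow: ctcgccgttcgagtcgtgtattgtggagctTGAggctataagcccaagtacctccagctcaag
Selenok: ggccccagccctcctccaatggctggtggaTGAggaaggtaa
Selenos: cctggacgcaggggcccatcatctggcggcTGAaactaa
Dio1: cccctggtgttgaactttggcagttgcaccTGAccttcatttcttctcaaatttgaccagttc
Sephs2: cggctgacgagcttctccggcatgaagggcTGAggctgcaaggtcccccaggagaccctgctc
Msrb1: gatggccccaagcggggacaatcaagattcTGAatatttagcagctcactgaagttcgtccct

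The windows of Selenok and Selenos end at the true stop codon, because in both genes selenocysteine lies almost at the end of the protein. It was residue 92 of 94 in Selenok and residue 189 of 190 in Selenos. In Selenow it lay near the start, at residue 13 of 88. Sephs2 had it at residue 63 of 452, Selenof at residue 93 of 162, Msrb1 at residue 95 of 116 and Dio1 at residue 126 of 257. An in-frame TGA before the stop codon was found in 29 of 21484 genes with a complete protein-coding transcript, which is 0.135%. The 29 were the 24 mouse selenoprotein genes and 5 mitochondrial genes, in which TGA is read as tryptophan.

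Selenop differs from the other members in having 10 such codons among 380. The first, at residue 59, belongs to the redox-active part of the protein, and the other 9 lie between residues 259 and 377 in the tail that carries selenium to other tissues. The 300 bases below hold 6 of those 9 and are shown as the larger part of that selenium-carrying tail's codons.
Selenop, coding bases 820 to 1119: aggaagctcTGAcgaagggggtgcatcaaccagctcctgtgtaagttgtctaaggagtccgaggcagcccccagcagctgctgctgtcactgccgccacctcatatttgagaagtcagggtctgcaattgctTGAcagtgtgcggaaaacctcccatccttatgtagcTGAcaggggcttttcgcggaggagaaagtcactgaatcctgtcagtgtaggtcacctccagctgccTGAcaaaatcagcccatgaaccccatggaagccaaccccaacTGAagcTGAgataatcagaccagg

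The distance from the first selenocysteine codon to the last exon junction also differs among the members. A stop codon more than about 50 bases before that junction is the textbook position for decay of a message with a premature stop. The codon lay 357 bases before the junction in Selenop, 303 in Dio1, 243 in Selenow and 78 in Selenof. It lay 34 bases before it in Msrb1 and 5 bases before it in Selenok. In Selenos the junction came before the codon, and Sephs2 has a single exon and no junction.

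**Figure D1:**
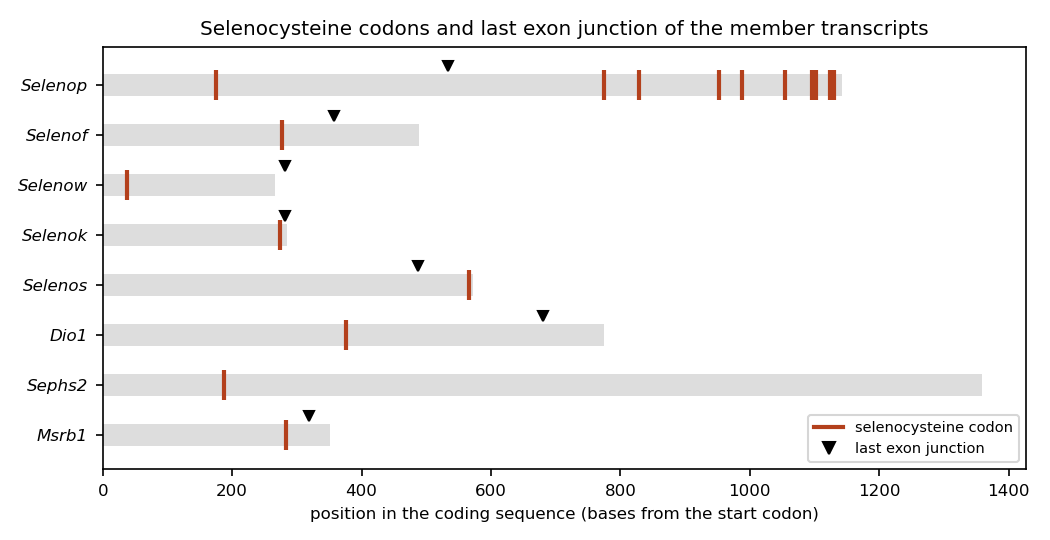
Grey bars are the coding sequences of the 8 transcripts, in bases from the start codon, red lines mark in-frame selenocysteine codons and black triangles the last exon junction. Selenop has 10 codons, 9 of them towards the end, and each other gene has 1.

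Total counts ran from 15167730 to 25082532 per library, and every member had at least 1082 counts in every library. Cyp2e1, the check of the labels, fell from 6546 ± 464 to 277 ± 46.2 CPM (counts scaled to the library size; mean ± SD, n = 3) in females and from 10851 ± 568 to 370 ± 45.6 in males. The library sizes were scaled by edgeR's TMM method, and each difference below is a log2 fold change ± SE from edgeR's quasi-likelihood model of the 12 libraries. A gene is called when its Benjamini-Hochberg adjusted p over the 14003 genes is under 0.05. Hepatocyte markers summed to between 70623 and 112404 CPM in every library. The libraries differ in how their counts depend on gene length, measured as the slope of log2 CPM deviation per doubling of length over 9366 genes. That slope was -0.14, -0.23 and -0.20 in female WT and 0.08, 0.29 and 0.19 in female KO, so the female groups do not overlap in it. It was -0.03, 0.11 and -0.16 in male WT and 0.08, -0.17 and 0.17 in male KO, which overlap. The length slope moves with the female comparison throughout, and its part in each difference was not tested beyond the fits given below.

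Selenop, the plasma selenium carrier (ENSMUSG00000064373, mm39 chromosome 15, 3298029 to 3309990, plus strand), was the most abundant member. With a mean of 6854 CPM it ranked number 11 of all genes by CPM, and number 25 at 2412 CPM per kilobase. Its level was 8589, 14125 and 10389 CPM in the 3 female WT livers, against 3884, 4673 and 5320 CPM in female KO. Every female KO library lay below every female WT library, and female WT replicate 2 was the highest of all 12. The female KO mean of 4626 ± 719 CPM was 41.9% of the WT mean of 11034 ± 2824 CPM, a log2 difference of -1.25 ± 0.32. Male WT livers had 6601, 3994 and 6576 CPM and male KO livers 5021, 9192 and 3884 CPM. The male groups overlap, with KO replicate 2 above every male WT library and KO replicate 3 below them all. Their log2 difference was 0.08 ± 0.31, with a 95% interval from -0.54 to 0.69.

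Ccdc152 lies on the opposite strand across the gene and had 82 to 189 counts per library, against at least 71440 for Selenop. The treatment of reads over the overlap is not stated, so any loss from Selenop is not known. Selenop made up 0.401% to 1.33% of all counts in a library. The 24 selenoprotein genes together held 0.699% to 1.82%, and Selenop gave 56.5% to 73.3% of their summed CPM. Per kilobase of gene length its share was 45.7% to 63.1%. The sum over the 24 genes was 12593, 19261 and 15610 CPM in female WT and 6580, 6841 and 7810 CPM in female KO, with no overlap. In males it was 10304, 6967 and 11638 CPM in WT and 8134, 14077 and 6721 CPM in KO, which overlap.

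**Figure D2:**
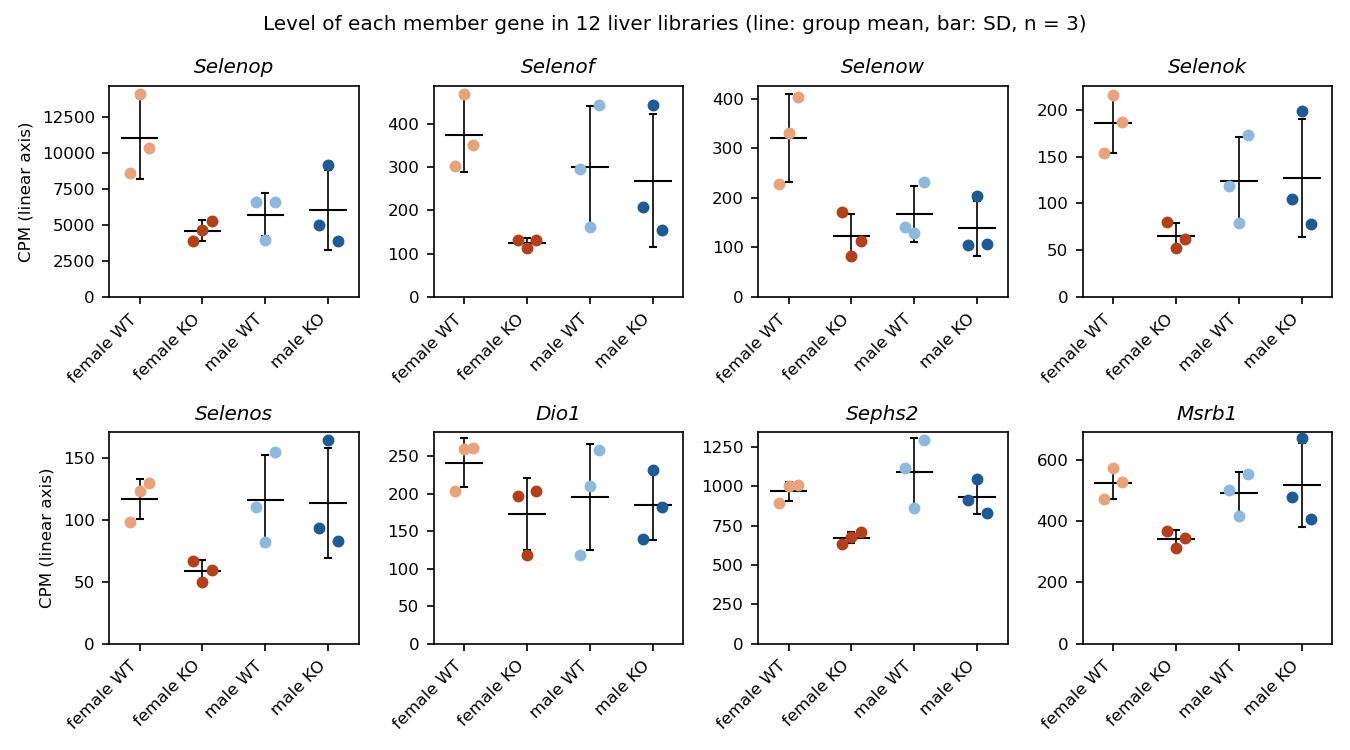
Each panel plots the CPM of 1 member on a linear axis from 0, with a point for each library, the group mean as a line and the SD as a bar (n = 3). Female KO points lie below female WT points in every panel but that of Dio1, where KO replicate 3 is level with WT replicate 1. The male groups overlap in all 8.

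Selenof, Selenok and Selenos encode selenoproteins of the endoplasmic reticulum (ER). Selenof binds UGGT, the enzyme that checks glycoprotein folding. Its gene (ENSMUSG00000037072, chromosome 3, 144276065 to 144303441, plus strand) gave 303, 469 and 351 CPM in female WT and 133, 113 and 132 CPM in female KO. The KO values lie close together, all under the lowest WT value. The difference was -1.57 ± 0.39, the largest in size among the members. Male WT had 295, 161 and 442 CPM and male KO 207, 442 and 156 CPM. The highest libraries of both male groups were level, and the difference was -0.16 ± 0.38.

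Selenok, a small ER membrane protein that partners the palmitoyltransferase ZDHHC6 (ENSMUSG00000042682, chromosome 14, 29690265 to 29697619, plus strand), had 154, 216 and 187 CPM in female WT. Female KO had 80.4, 52.6 and 62.2 CPM. The groups do not overlap, and the difference was -1.51 ± 0.35. Male WT had 119, 78.9 and 173 CPM and male KO 104, 199 and 78.4 CPM, whose ranges are nearly the same. The male difference was 0.04 ± 0.34. Selenok pseudogenes listed in the table had at most 11 counts in any library, against at least 1135 for Selenok.

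Selenos, which links the p97 ATPase (VCP) to the Derlin proteins in ER-associated degradation (ENSMUSG00000075701, chromosome 7, 65729397 to 65739153, plus strand), had 98.4, 123 and 130 CPM in female WT and 66.7, 50.1 and 59.6 CPM in female KO. The difference was -0.99 ± 0.28, with no overlap. Male WT had 110, 82.1 and 155 CPM, and male KO had 93.3, 165 and 82.6 CPM. Both male groups had 1 library well above the other two, and the male difference was -0.03 ± 0.28.

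Selenow, a small cytosolic thioredoxin-fold selenoprotein (ENSMUSG00000041571, chromosome 7, 15651133 to 15656327, minus strand), is the shortest member gene by counted length. It had 228, 331 and 403 CPM in female WT and 172, 82.2 and 113 CPM in female KO. The groups do not overlap, but female KO replicate 1 was nearer to the lowest WT library than to KO replicate 2, and the difference was -1.39 ± 0.35. Male WT had 142, 128 and 232 CPM and male KO 105, 203 and 107 CPM. They overlap, with a difference of -0.28 ± 0.34. Its widest fold between any pair of libraries, 4.91, was the largest among the members.

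Msrb1 reduces methionine sulfoxide in proteins (ENSMUSG00000075705, chromosome 17, 24955616 to 24961752, plus strand). It had 473, 575 and 527 CPM in female WT against 368, 311 and 346 CPM in female KO. All KO values were lower and the difference was -0.62 ± 0.20. Male WT had 502, 418 and 553 CPM and male KO 477, 671 and 407 CPM. The male groups overlap at 0.08 ± 0.20.

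Sephs2 makes selenophosphate, the selenium donor for selenocysteine synthesis, and is itself a selenoprotein (ENSMUSG00000049091, chromosome 7, 126871051 to 126873227, minus strand). It was the second member by level per kilobase, at 421 CPM per kilobase. Female WT livers had 898, 999.9 and 1009 CPM and female KO livers 637, 677 and 711 CPM. Each group was narrow and they do not overlap, with a difference of -0.52 ± 0.18. Male WT had 1114, 864 and 1298 CPM and male KO 913, 1048 and 832 CPM, a difference of -0.23 ± 0.18 with overlap.

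Dio1, the liver deiodinase that turns thyroxine into the active hormone T3 (ENSMUSG00000034785, chromosome 4, 107148662 to 107164366, minus strand), was the member whose female groups overlap. Female WT had 204, 260 and 261 CPM and female KO 198, 118 and 204 CPM. The overlap is a near tie, with 204.33 CPM in KO replicate 3 against 204.31 CPM in WT replicate 1. KO replicates 1 and 3 lay next to WT replicate 1, and only KO replicate 2 was far below. The difference was -0.48 ± 0.29, with a 95% interval from -1.05 to 0.09. Male WT had 119, 211 and 258 CPM and male KO 140, 232 and 183 CPM, a difference of -0.08 ± 0.29.

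Per kilobase of counted gene length, the members stood in the order Selenop (2412), Sephs2 (421), Msrb1 (373), Selenow (254), Dio1 (101), Selenos (68.6), Selenok (66.3) and Selenof (45.8 CPM per kilobase, means of 12 libraries). Neighbours in that order from Sephs2 to Selenow and from Selenos to Selenof lie within the spread of their libraries. The order also depends on the deposited gene lengths, which may differ from the lengths of the transcripts present. Over the 12 libraries the SD of log2 CPM was 0.76 for Selenof, 0.71 for Selenow and 0.70 for Selenok, at percentiles 84.3, 79.6 and 78.9 of all tested genes. It was 0.61 for Selenop and 0.54 for Selenos. Sephs2, Msrb1 and Dio1 varied less, with SDs of 0.30, 0.33 and 0.41 at percentiles 23.2, 26.9 and 40.7. Female KO replicate 2 was the lowest library for 6 of the 8 members, all but Selenop and Sephs2.

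In females, 7 of the 8 members were called lower in KO, and in the same 7 the groups did not overlap. Of all genes tested 18.8% were called lower and 17.7% higher, and 27.1% had every KO library below every WT library. The members were chosen with this contrast known, so nothing is read from that count. The median difference over the members was -1.12 log2 units, against 0.05 over all genes.

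The female calls rest on few libraries. Without female WT replicate 2 none of the 8 members was called, with a median of -0.998, and without female KO replicate 2 none was called either, with a median of -1.03. Over all genes, too, the calls dropped from 5116 to 5 and to 4 in these fits, so the loss was that of the whole contrast. Leaving out replicate 3 of either female group left 4 members called lower. Over all genes 1627 were called lower without WT replicate 3 and 1510 without KO replicate 3, against 2637 in the main fit. When the length trend was subtracted from each library, 3 members remained called lower, beside 2008 of all genes. The median of the 8 members became -0.36. Selenop came to -1.05, Selenof to -1.80 and Selenok to -1.05 in that fit, Selenow to -0.37, Selenos to -0.35, Sephs2 to -0.14, Dio1 to -0.05 and Msrb1 to 0.13. In the same order, their counted lengths were 2842, 5819, 1891, 736, 1477, 2177, 1970 and 1258 bases. Selenof, the longest by this measure, was the only member whose difference grew in size, from -1.57. The lengths are those deposited per gene and need not be those of the transcripts present in liver. For such a gene the subtracted trend may not be the right one, which was not tested. With the length slope of each library as a term of the model, no member and 10 of all genes were called. The 8 differences then lay between -0.17 for Selenop and 0.15 for Selenos, with a median of 0.02. The female groups do not overlap in slope, so in that fit slope and genotype cannot be fully told apart.

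**Figure D3:**
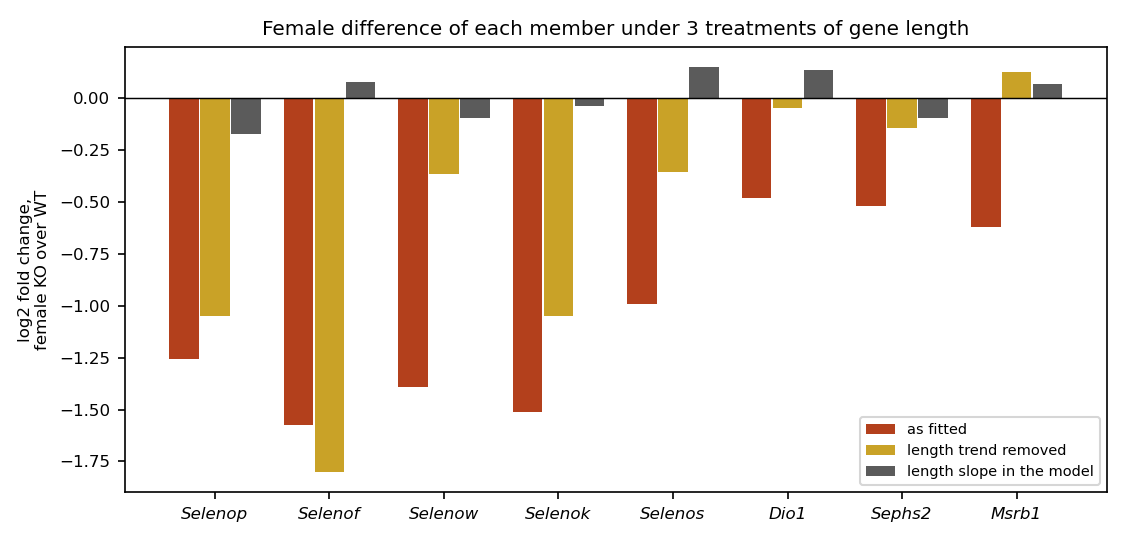
Bars give the female KO over WT log2 fold change of each member as fitted (red), after the length trend was subtracted from each library (yellow) and with the length slope as a term of the model (grey). All 8 red bars are below 0, Selenop, Selenof and Selenok stay below -1 in yellow, and the grey bars lie between -0.17 and 0.15.

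Within groups, where genotype and sex are constant, the order of the libraries by member level was set beside their order by length slope. In female WT the order of the 3 libraries by level was the exact reverse of their order by slope for 4 of the 8 members, and in female KO for 5. It was the reverse for 6 members in male WT and for 6 in male KO. Over all tested genes the shares were 17.6%, 25.2%, 28.6% and 29.6% in these groups. Dio1 had the reverse order in no group, and Sephs2 in the male groups only. The part of the slope in these orders was not tested. Male KO replicate 2, with the lowest slope of its group, had the highest level of all 8 members. Male WT replicate 3, likewise lowest in slope, had the highest level of 7.

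**Figure D4:**
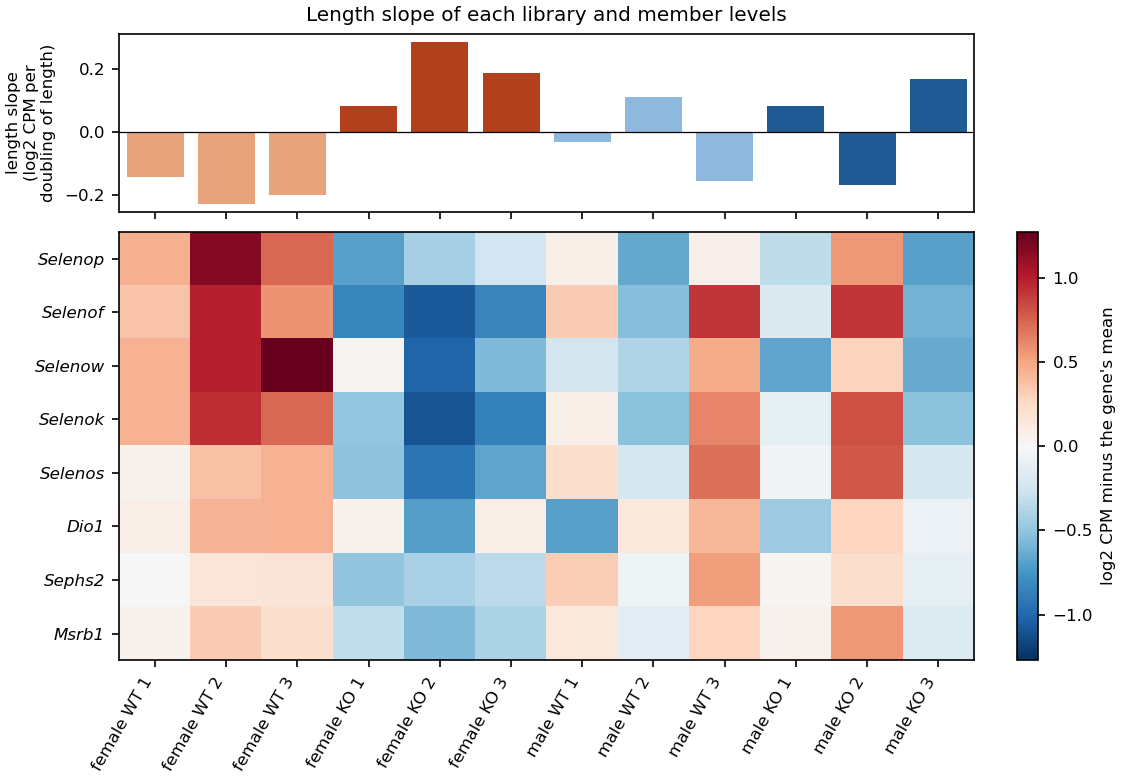
The upper panel gives the length slope of each of the 12 libraries in log2 CPM per doubling of gene length, and the lower panel each member's log2 CPM minus its own mean (red higher, blue lower). Female WT replicates 2 and 3, male WT replicate 3 and male KO replicate 2 have negative slopes and only red cells, and female KO libraries have positive slopes and mostly blue cells, Dio1 and Selenow giving the exceptions.

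In males no member was called, where 0.0571% of all genes were called either way. The groups overlapped for all 8 members, and 9.62% of all genes had groups that did not. The median difference was -0.06, against -0.003 over all genes. The sign depended on single libraries: without male KO replicate 2 all 8 differences were negative (median -0.38), and without male WT replicate 3 only 1 was (median 0.18). The 95% interval of Sephs2, from -0.58 to 0.12, was the narrowest, and that of Selenof, from -0.90 to 0.59, the widest.

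The difference between the sexes in the KO effect was positive for all 8 members, which means less negative or more positive in males. It was 1.55 ± 0.48 for Selenok, 1.42 ± 0.54 for Selenof, 1.33 ± 0.44 for Selenop and 1.11 ± 0.49 for Selenow. For Selenos it was 0.96 ± 0.39 and for Msrb1 0.70 ± 0.28, and it was smaller for Dio1 (0.40 ± 0.41) and Sephs2 (0.29 ± 0.25). The quasi-likelihood test called 0% of all genes for this difference, and so no member, although 3145 genes had an unadjusted p under 0.05. DESeq2's Wald test called 268 genes, 2 of them members. Without the filter on low counts edgeR called 1451 of 25594 genes, 4 of them members. Of the 1451, 1432 were among the genes tested in the main fit, so most of these added calls were not of filtered genes. With the length slope in the model 5 of the 8 differences were negative, with a median of -0.03.

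**Figure D5:**
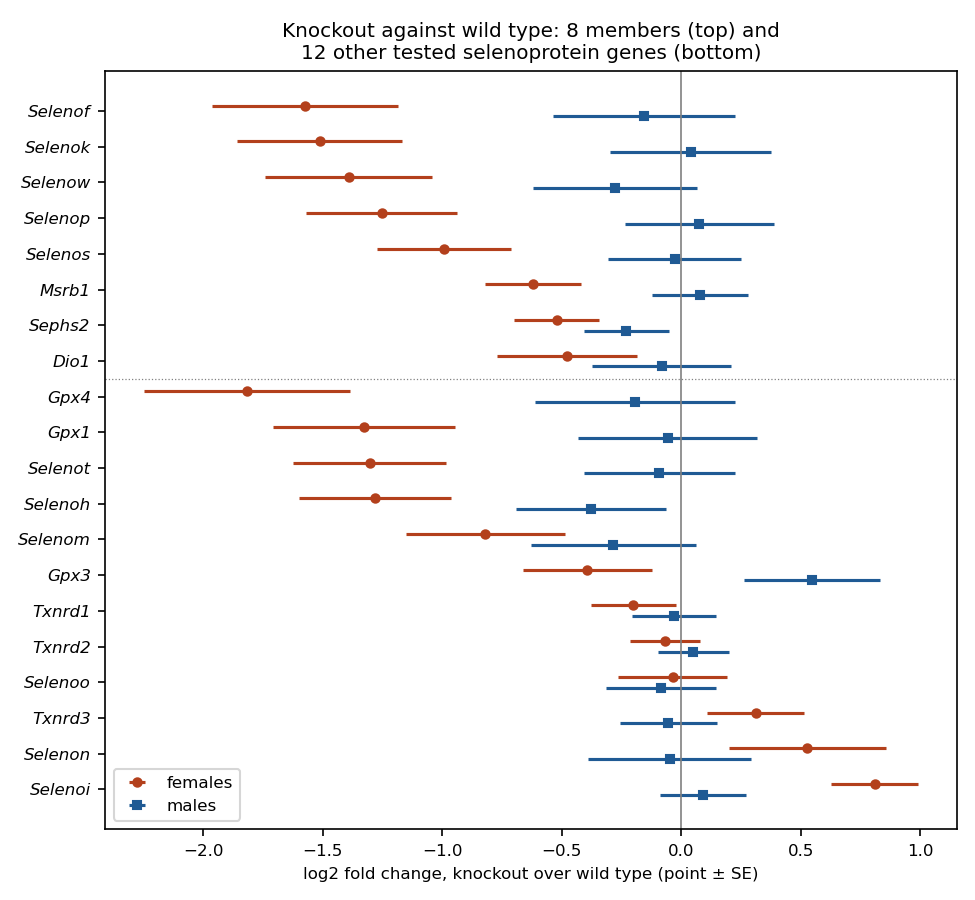
Points give the log2 fold change of KO over WT (± SE) for the 8 members above the dotted line and the 12 other tested selenoprotein genes below it, females in red and males in blue. Female points run from -1.82 for Gpx4 to 0.81 for Selenoi, and male points of the members from -0.28 to 0.08.

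Between the sexes, no member was called in either line. In WT, 4.49% of all genes were called, and 13.5% had every male library below every female library. Among members that was the case for Selenop, with 5724 ± 1498 CPM in males against 11034 ± 2824 CPM in females, a male minus female difference of -0.95 ± 0.32. Selenow differed by -0.94 ± 0.34, with male WT replicate 3 level with the lowest female library. Selenos, Msrb1 and Sephs2 were close between the sexes in WT, at -0.02 ± 0.28, -0.10 ± 0.20 and 0.17 ± 0.18. The remaining members had lower means in male WT, with overlap. Selenof had 299 ± 140 CPM in male WT against 374 ± 85.3 CPM in female WT. Selenok had 124 ± 47.4 CPM against 186 ± 31.4 CPM, and Dio1 196 ± 70.8 CPM against 242 ± 32.5 CPM. In KO, 5.40% of all genes were called, and 14.0% had every male library above every female library. Selenof, Selenos, Sephs2 and Msrb1 were among the latter, with differences of 1.09 ± 0.39, 0.95 ± 0.28, 0.46 ± 0.18 and 0.60 ± 0.20. Selenop was not, at 0.38 ± 0.31, nor were Selenok, Selenow and Dio1. Selenok had 127 ± 63.3 CPM in male KO against 65.0 ± 14.1 CPM in female KO. Its overlap was narrow, with 78.4 CPM in male KO replicate 3 against 80.4 CPM in female KO replicate 1. Selenow had 138 ± 56.2 CPM in male KO against 122 ± 45.4 CPM in female KO. Dio1 had 185 ± 46.0 CPM against 173 ± 47.8 CPM. Other settings called some members, but they also called more of all genes than the main fit, with its 335 lower in male WT and 413 higher in male KO. Without the filter, over 25594 genes, 2 members were lower in male WT, beside 696 of all genes, and 3 higher in male KO, beside 1022. DESeq2's Wald test called 2 members higher in male KO, beside 820 of all genes. Without male KO replicate 3 edgeR called 4 members higher there, beside 613. Single members were called without male KO replicate 2 (WT, lower, beside 519 of all genes) and without male WT replicate 2 or 3 (KO, higher, beside 485 and 504). The sex contrasts share groups with the KO contrasts and are no separate evidence.

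The other 16 selenoprotein genes were taken as a list, and 12 of them were tested. Gpx2, Dio2, Dio3 and Selenov had at most 5 counts in any library. In females 4 of the 12 fell in KO and 1 rose, which is 41.7% against 36.5% of all tested genes called either way, and 7 did not pass. The median difference was -0.30. Gpx4, the glutathione peroxidase that reduces lipid hydroperoxides, fell from 787 ± 152 to 223 ± 77.9 CPM (-1.82 ± 0.43, adjusted p = 0.0142). Its value is uncertain, because the near-identical Gpx4-ps2 held 656 to 2611 counts per library and reads can be split between them. Gpx1, the abundant cytosolic glutathione peroxidase, fell from 670 ± 214 to 267 ± 105 CPM (-1.33 ± 0.38, adjusted p = 0.0200). Selenot, an ER thioredoxin-fold protein, fell from 318 ± 52.0 to 129 ± 19.2 CPM (-1.30 ± 0.32, adjusted p = 0.0146). Selenoh, a nucleolar protein, fell from 19.6 ± 4.09 to 8.05 ± 0.272 CPM (-1.28 ± 0.32, adjusted p = 0.0147). Selenoi, a phospholipid synthesis enzyme, rose from 24.4 ± 2.55 to 42.8 ± 4.95 CPM (0.81 ± 0.18, adjusted p = 0.0140).

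The 3 thioredoxin reductases, which keep thioredoxin reduced, did not pass: Txnrd1 differed by -0.20 ± 0.18, Txnrd2 by -0.07 ± 0.15 and Txnrd3 by 0.31 ± 0.20. Nor did Selenom (-0.82 ± 0.33, adjusted p = 0.0681), Gpx3 (-0.39 ± 0.27), Selenon (0.53 ± 0.33) or Selenoo (-0.04 ± 0.23). With the length trend subtracted, Gpx4 (-1.30, adjusted p = 0.0171) and Selenot (-1.22, adjusted p = 0.0182) were still called, and Gpx1, Selenoh and Selenoi were not. Txnrd1 was called lower in that fit (-0.52, adjusted p = 0.0201). None of the 12 was called with the length slope in the model, or without replicate 2 of either female group. In males 0 of the 12 passed edgeR's test. Male against female in WT, Gpx3, the plasma glutathione peroxidase, was lower in males, at 1.61 ± 0.556 against 3.64 ± 0.530 CPM (-1.18 ± 0.28, adjusted p = 0.0287), a call that was lost without any 1 female WT library, without male WT replicate 1 or 3, with only the groups compared and with the length trend subtracted. In KO no other selenoprotein gene differed between the sexes by that test.

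The 4 members whose selenocysteine codon lies over 50 bases before the last junction had female differences of -1.25 (Selenop), -1.57 (Selenof), -1.39 (Selenow) and -0.48 (Dio1). The 4 without such a position had -1.51 (Selenok), -0.99 (Selenos), -0.62 (Msrb1) and -0.52 (Sephs2). The ranges overlap, and the position was not tested against the differences.

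Genes that make and insert selenocysteine formed the next list, all 13 of them tested. In females 2 fell and 1 rose in KO, which is 23.1% of the list and below the share of all genes. Pstk, the kinase that phosphorylates seryl-tRNA on its way to selenocysteine, fell from 26.2 ± 5.69 to 10.4 ± 2.94 CPM (-1.33 ± 0.40, adjusted p = 0.0243). Trnau1ap, which binds the selenocysteine tRNA, fell from 36.0 ± 4.77 to 17.0 ± 4.36 CPM (-1.08 ± 0.32, adjusted p = 0.0221). Ncl, nucleolin, an abundant nucleolar protein that also binds SECIS elements, rose from 61.8 ± 15 to 122 ± 5.56 CPM (0.98 ± 0.30, adjusted p = 0.0262). Sepsecs, which completes the tRNA-bound selenocysteine, differed by -0.09 ± 0.16, and Secisbp2, the SECIS-binding protein, by 0.67 ± 0.27 (adjusted p = 0.0667). The list's median was -0.09. In males none passed. Trit1, a tRNA-modifying enzyme, was higher in male than in female KO (15.7 ± 3.35 against 9.52 ± 0.293 CPM, 0.72 ± 0.18, adjusted p = 0.0320), which was lost without any 1 of the female KO libraries, male KO replicate 2 or male WT replicate 1, and also without the filter, with only the groups compared and with the length trend subtracted.

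Of 7 genes of selenium uptake, release, binding and methylation, 6 were tested, and none passed for KO against WT in either sex. Lrp8, a receptor for selenoprotein P in brain and testis, had at most 4 counts per library. Scly, which frees selenium from selenocysteine, differed by 0.10 ± 0.16 in females, and Selenbp1, a selenium-binding protein, by 0.23 ± 0.20. Selenbp2, its close relative, was higher in males in both lines. In WT it had 348 ± 188 CPM in males and 5.72 ± 1.29 CPM in females (5.93 ± 0.50, adjusted p = 5.205e-06), and in KO 379 ± 101 against 10.1 ± 3.84 CPM (5.23 ± 0.48, adjusted p = 1.43e-05). Selenbp1 and Selenbp2 are similar in sequence, and the treatment of reads shared by them is not stated in the labels. Tpmt, a methyltransferase, was also higher in males, at 128 ± 13.2 against 80.8 ± 1.74 CPM in WT (0.66 ± 0.16, adjusted p = 0.0331) and 117 ± 18.2 against 66.5 ± 4.46 CPM in KO (0.81 ± 0.16, adjusted p = 0.00919). The WT call for Tpmt was lost without any 1 of the female WT libraries, female KO replicate 3, male WT replicate 1 or 3 or male KO replicate 1, and the KO call without female KO replicate 2. With only the groups compared both calls were lost, and without the filter the WT call was.

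Around Dio1, 12 genes of thyroid hormone action and transport were tested. In females 3 rose and 3 fell in KO, or 50% of the list against 36.5% of all genes. Thrsp, a lipogenic gene that responds to thyroid hormone, fell from 2724 ± 268 to 611 ± 249 CPM (-2.16 ± 0.38, adjusted p = 0.0132). Me1, malic enzyme, fell from 209 ± 66.1 to 102 ± 27.3 CPM (-1.03 ± 0.27, adjusted p = 0.0161). Klf9, a transcription factor that responds to thyroid hormone, rose from 38.4 ± 6.40 to 93.1 ± 28.3 CPM (1.28 ± 0.31, adjusted p = 0.0145). Thra, a thyroid hormone receptor, rose (1.42 ± 0.35, adjusted p = 0.0148), and Slco1a1, an organic anion transporter, fell (-1.20 ± 0.35, adjusted p = 0.0207). Slco1a1 was higher in males, at 785 ± 233 against 260 ± 80.0 CPM in WT (1.59 ± 0.35, adjusted p = 0.0184) and 785 ± 309 against 113 ± 35.4 CPM in KO (2.80 ± 0.37, adjusted p = 0.000390). The WT call for Slco1a1 was lost without female WT replicate 1 or 3 or male WT replicate 1. None passed for KO in males.

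Among 11 ER quality control partners, 3 rose and 2 fell in female KO, which is 45.5% against 36.5% of all genes. Sel1l and Syvn1, the core of the ubiquitin ligase complex that clears misfolded ER proteins, rose by 1.03 ± 0.26 (adjusted p = 0.0150) and 0.93 ± 0.26 (adjusted p = 0.0195). Derl1 and Derl2, the Derlin channel proteins to which Selenos binds, fell, from 211 ± 14.2 to 138 ± 7.38 CPM (-0.61 ± 0.18, adjusted p = 0.0221) and from 148 ± 9.85 to 86.6 ± 12.2 CPM (-0.77 ± 0.24, adjusted p = 0.0257). Vcp, which Selenos also binds, differed by 0.50 ± 0.21 (adjusted p = 0.0754). Nploc4, a cofactor of that ATPase, was the third that rose (0.78 ± 0.28, adjusted p = 0.0427). Of 6 methionine sulfoxide reductases and thioredoxins, 4 fell in female KO, where 18.8% of all genes fell. Txn1, thioredoxin, the electron donor of Msrb1, fell from 374 ± 37.7 to 169 ± 24.7 CPM (-1.15 ± 0.25, adjusted p = 0.0140). Glrx, glutaredoxin, fell from 97.8 ± 9.65 to 58.2 ± 1.14 CPM (-0.75 ± 0.15, adjusted p = 0.0139). Msra, the reductase of the other methionine sulfoxide isomer, fell from 234 ± 32.6 to 149 ± 9.63 CPM (-0.64 ± 0.17, adjusted p = 0.0154). Msrb2, the mitochondrial form, fell from 19.1 ± 2.79 to 11.1 ± 0.125 CPM (-0.78 ± 0.23, adjusted p = 0.0218). In males none of the genes of these lists passed.

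The female calls in all these lists shared the limit of the members: each was lost without female WT replicate 2, without female KO replicate 2 and with the length slope in the model. The calls of Gpx1, Pstk, Trnau1ap, Ncl, Derl2 and Nploc4 were also lost without replicate 3 of either female group, those of Slco1a1 and Syvn1 without WT replicate 3, and those of Derl1 and Msrb2 without KO replicate 3. Without female WT replicate 1, Me1 and Derl1 were lost, and without female KO replicate 1, Ncl, Slco1a1 and Nploc4 were lost. Nploc4 was also lost without replicate 1 of either male group. With the length trend subtracted, Txn1 (-0.30, adjusted p = 0.0922), Msrb2 (-0.08, adjusted p = 0.720) and Ncl (0.53, adjusted p = 0.0817) were no longer called, and the other called genes named from the lists outside the selenoproteins were. Markers of other cells moved in the same contrast, in which 17.7% of all genes were called higher and 18.8% lower. Of 8 Kupffer cell markers 4 rose in female KO, their summed level going from 119 to 174 CPM in WT to 170 to 200 CPM in KO. Of 8 sinusoidal endothelial markers 4 rose, with sums of 157 to 185 CPM in WT and 213 to 286 CPM in KO. Of 8 hepatocyte markers 1 rose, and their sums were 83779 to 112404 CPM in WT and 99113 to 99446 CPM in KO. Of 7 stellate cell markers 2 rose and 1 fell (222 to 244 CPM in WT, 201 to 246 CPM in KO), and of 5 cholangiocyte markers 1 rose and 2 fell (42.2 to 49.9 CPM in WT, 22.3 to 34.0 CPM in KO). Of 4 tested lymphocyte and neutrophil markers 2 rose (9.50 to 15.4 CPM in WT, 13.2 to 35.0 CPM in KO), and of 3 tested erythroid markers none passed (386 to 911 CPM in WT, 206 to 520 CPM in KO). The marker calls were not followed through the fits with a library left out or with gene length, in some of which nearly all calls were lost. The part of these cells in the members' differences was not tested.

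The genes whose pattern over the 12 libraries was most like that of Selenop were found by the root mean square difference of log2 CPM, each gene centred on its own mean, among 7407 protein-coding genes. They were Pex7 (0.15), Cyp2r1 (0.16), Dynlt3 (0.16), Dram2 (0.16) and Hsd11b1 (0.17 log2 units), while Selenop itself had an SD of 0.61. For the other members the nearest gene was Arl1 for Selenof (0.071), Mrpl14 for Selenok (0.077), Lsm6 for Selenos (0.10), Apoc3 for Selenow (0.15), Osbpl1a for Sephs2 (0.077), AI182371 for Msrb1 (0.073) and Galk1 for Dio1 (0.24). Among the members themselves, Sephs2 and Msrb1 (0.16) and Selenof and Selenok (0.16) were closest, and Selenof and Dio1 (0.62) farthest apart. All genes share the 12 libraries and their length slopes, so a near pattern is a description only.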

How the data were processed

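Poly(A) RNA of 12 mouse livers was sequenced after random-hexamer priming, per the labels' protocols. The deposited table gives raw counts per gene, whole numbers with a different total in each library (15167730 to 25082532), with mm39 positions and a gene length. HISAT2 2.0.5, DESeq2 and mm39 are named in the submitters' processing notes without a role. For the counting program and its strand setting, the sources used here give nothing. Columns were matched to samples by the library number in the labels. The labels call the replicates biological and do not say more, so p-values measure the spread between these samples. No replicate pair agreed within sampling noise (chi-square of 14.9 to 136 for each degree of freedom).

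The filter was filterByExpr of edgeR on the 4 groups (14003 of 56748 genes, 99.9% of counts). edgeR 4.0.16 in R 4.3.3 fitted 1 mean per group to all 12 libraries with TMM scaling and tested 5 contrasts by quasi-likelihood F test (8 residual degrees of freedom, biological coefficient of variation 25.9%), adjusted by Benjamini-Hochberg over all genes tested. SEs are |log2 fold change| divided by the root of F. The scripts were tested on simulated data. Log2 CPM used a prior count of 2. The minimum mean log2 CPM was 2 for genes in the length slope and 3 in the search for near patterns.

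The members and the lists were chosen with earlier results of these data known. Named genes were the members, Cyp2e1, tested selenoprotein genes, the nearest genes, and up to 4 called genes of smallest adjusted p per list and contrast; Sepsecs, Secisbp2, Scly, Selenbp1, Vcp, Lrp8, Nploc4 and, in females, Me1 and Slco1a1 were added after their values were seen. Some genes of the lists are in all counts and are not reported here one by one. Sars1 of the list is Sars in the table, and Ttr is in both the thyroid and the hepatocyte list. Coding sequences came from GENCODE M21 (GRCm38) and were used only within transcripts. Alternatives were DESeq2 1.42.0 (its size factors and its Wald test), no filter, only the groups compared, a replicate block, the length slope as a term, the length trend subtracted, and each library left out.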

Additional observations from a re-analysis of the deposited data

How the results depend on the processing

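Calling 5116 genes in females, edgeR called 10 with the length slope of each library in the model, 3365 with a replicate block and 4 to 5993 with 1 library left out, lowest without female KO replicate 2. In males it called 8 genes; DESeq2's Wald test called 27, the length slope model 18, no filter 101, only the groups compared 1, and leaving out 1 library 5 to 18. For the difference between the sexes it called 0; DESeq2 called 268, the length slope model 3, no filter 1451 and leaving out 1 library 0 to 2. Male against female in WT gave 629, with 1126 by DESeq2, 1700 without a filter, 415 with a replicate block and 379 to 1124 with 1 library left out. In KO it gave 756, with 1332 by DESeq2, 1694 without a filter and 440 to 953 with 1 library left out. No value for the difference between the sexes was possible with only the groups compared.

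With the length slope in the model these called female log2 differences changed sign: Selenof 0.080, Selenos 0.15, Msrb1 0.069, Gpx1 0.10, Pstk 0.35, Trnau1ap 0.23, Derl2 0.14, Ncl -0.13, Sel1l -0.0067 and Nploc4 -0.34. Of differences not called, Dio1 became 0.14, Txnrd2 0.14, Txnrd3 -0.12, Selenon -0.34, Tpmt 0.15 and Trit1 0.058, also with a change of sign. With the length trend subtracted Msrb1 became 0.13, and of differences not called Gpx3 became 0.12 and Trit1 0.083. With DESeq2's size factors in edgeR, none of the 205 results compared moved beyond the limit set for a change. For members and for differences not called, that limit was the largest SD within the groups compared. Counts of called genes still shifted, such as from 5116 to 5121 in females and from 756 to 769 between the sexes in KO. No sign was seen that the replicate numbers pair the samples. Deviations of same-numbered libraries correlated with a median r of -0.06 over 18 pairs, against 0.04 over 36 other pairs. With 3 libraries per group and length slopes that vary within groups, a pairing could be missed. The replicate block left 5 of the 8 members called lower in females, beside 1827 of all genes. Under it Pstk, Trnau1ap, Derl1, Derl2 and Nploc4 in females, Gpx3 and Tpmt between the sexes in WT and Trit1 in KO were not called. The causes of these changes were not tested. Depth was at least 15167730 counts a library and at least 1082 for a member, and the number of libraries limits the precision.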
